A study of Mus musculus with 18 samples.

Results

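Growth factors, cytokines and lysosomal glycoproteins that microglia can secrete to support neurons and the oligodendrocyte lineage were followed across brain region and age. The genes are Pdgfa, Pdgfb, Bdnf, Hbegf, Tgfa, Osm, Lif, Ptn, Grn and Psap, secreted factors with known trophic actions chosen by name, with Igf1 left out. They are 10 of the 22180 genes tested. A gene was taken from the probe sets that the platform annotation gives to that symbol alone, and each of the 10 had 1 such probe set.

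The study sorted microglia, the resident macrophages of the brain, from untreated C57Bl/6 mice in specific-pathogen-free housing and measured their RNA on expression arrays. By its title, the series asks what microglia contribute to myelin formation and to keeping oligodendrocytes. The 18 arrays form 6 groups of 3: cortex and corpus callosum, a white matter tract that myelinates after birth, each from pups on postnatal day 3 (P3) or day 7 (P7) or from adults. Cells came from a Percoll gradient and a sort for CD45 and CD11b without Gr1, and their total RNA was amplified before labelling. No group carried a transgene or a treatment. The labels do not state how many animals or which sex stand behind an array, or whether cells were pooled. The p-values therefore measure the spread between these arrays, which may be technical. The P3 arrays bear another prefix in their labels than the P7 and adult arrays, so that age and array set cannot be told apart when P7 is compared with P3.

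As background, platelet-derived growth factors act on oligodendrocyte precursors through Pdgfra and on pericytes through Pdgfrb, and pleiotrophin (Ptn) binds the receptor phosphatase Ptprz1, which is abundant on oligodendrocyte precursors and astrocytes. Bdnf signals through TrkB, Hbegf and Tgfa are shed from the membrane to activate the EGF receptor, and Osm and Lif are cytokines of the interleukin-6 family. Progranulin (Grn) and prosaposin (Psap) are secreted and also delivered to lysosomes, where proteases cut them into granulins and saposins. Progranulin is a product for which microglia are known in the brain.

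The window of 250 bases before the transcription start is shown for Ptn and Grn, which changed with age, and for Psap, which travels with progranulin. The sequences are RefSeq's for the mouse assembly GRCm38.p6, and promoter windows were taken for 7 of the 10 genes. The windows lie at chr6:36810180-36810429 on the minus strand for Ptn, chr11:102430257-102430506 on the plus strand for Grn and chr10:60277378-60277627 on the plus strand for Psap, the first of its 2 windows. Each is printed from 5′ to 3′ and ends at the base before the start. Capitals mark any match on either strand to an E-box (CACGTG), an AP-1 motif (TGANTCA), a GC box (GGGCGG) or a TATA box (TATAAA).
Ptn: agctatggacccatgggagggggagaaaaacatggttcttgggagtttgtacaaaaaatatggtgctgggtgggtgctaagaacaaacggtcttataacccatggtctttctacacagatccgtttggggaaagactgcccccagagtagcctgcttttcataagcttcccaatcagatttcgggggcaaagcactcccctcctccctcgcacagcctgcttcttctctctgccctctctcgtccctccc
Grn: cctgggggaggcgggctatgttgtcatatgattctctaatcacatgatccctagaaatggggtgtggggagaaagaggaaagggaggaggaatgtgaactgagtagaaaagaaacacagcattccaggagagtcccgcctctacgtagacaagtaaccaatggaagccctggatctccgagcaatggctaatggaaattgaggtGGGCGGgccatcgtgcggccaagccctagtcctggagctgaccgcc
Psap: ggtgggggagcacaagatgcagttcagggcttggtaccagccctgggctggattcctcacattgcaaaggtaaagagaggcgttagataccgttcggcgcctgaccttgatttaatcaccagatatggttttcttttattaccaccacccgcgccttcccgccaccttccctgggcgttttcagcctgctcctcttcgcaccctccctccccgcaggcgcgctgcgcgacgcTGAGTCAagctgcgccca
The Ptn window held none of the 4 motifs and had a GC content of 52%. In the Grn window, with 53.6% GC, a GC box lay 46 bases before the start, as is found in 32.7% of the 32851 mouse windows of this length. The Psap window, with 58.8% GC, held an AP-1 motif 18 bases before the start, a motif present in 6.75% of windows. An E-box was present in 6.02% and a TATA box in 12.4% of all windows. A match of letters is a description of the window and does not show that a factor binds there.

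Levels are log2 units of the deposited normalised intensities, and array medians ran from 5.58 to 5.74. The mean correlation of an array with all others ran from 0.953 to 0.974, and was lowest for replicate 1 of the adult corpus callosum and next lowest for replicate 1 of the adult cortex. Markers of microglia averaged between 10.59 and 11.60 on every array, and 0 of the 7 measured lay below an array median. Differences were tested with limma over all genes, with Benjamini-Hochberg adjustment, and a gene passed at an adjusted p under 0.05. A fold is the deposited log2 difference turned back to a ratio. With 3 arrays against 3, an exact permutation test cannot go below 0.1 and was not used. In sorted bulk samples, fewer cells of a type and less RNA per cell cannot be told apart.

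Of the 10 trophic factor genes, 3 changed with age, and differences between corpus callosum and cortex stayed short of the threshold at every age. Ptn fell from P3 to P7 in both regions and fell further to adulthood in cortex. Pdgfb rose from P7 to the adult in both regions, and Grn fell over the same interval in corpus callosum. The other 7 genes passed in none of the comparisons of regions or ages. Falls from P3 to P7 passed for 0.604% of all genes in cortex and 0.415% in corpus callosum. From P7 to the adult 4.05% and 6.56% of all genes rose and 6.15% and 10.7% fell, in cortex and corpus callosum. Over that interval 1 of the 10 genes rose and 1 fell in each region, so those counts are near the background.

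Between regions, 0 of the 10 trophic factors passed at P3, where 0.505% of all genes did, 0 at P7, where 0.451% did, and 0 in the adult, where 0.00451%, a single gene, did. At an unadjusted p under 0.05 in limma the counts were 2, 1 and 1 of 10, beside 12.8%, 6.88% and 8.51% of all genes, and the lowest adjusted p values were 0.14, 0.52 and 0.568. The median differences of the 10 genes were 0.04, -0.01 and -0.04 at P3, at P7 and in the adult, and the medians over all genes were 0.01, 0.00 and 0.01. At these backgrounds fewer than 1 of 10 genes would be called, so a count of 0 is near the background.

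The regional difference of the 10 genes changed between ages in 0 of 10 from P3 to P7, where 0% of all genes passed and 1260 had an unadjusted p under 0.05 in limma. From P7 to the adult it changed in 0 of 10, beside 0.203% of all genes, and from P3 to the adult in 0 of 10, beside 0.18%. At an unadjusted p under 0.05 the counts were 1, 1 and 3 of 10, beside 5.68%, 7.34% and 13.7% of all genes. The lowest adjusted p values were 0.868 for Psap, 0.604 for Grn and 0.294 for Ptn.

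Over the ages, the median differences of the 10 genes from P3 to P7 were -0.03 in cortex and 0.02 in corpus callosum, beside 0.01 and -0.000802 over all genes. Between P7 and the adult they were 0.13 and 0.07, beside 0.03 and 0.05 over all genes.

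**Figure D1:**
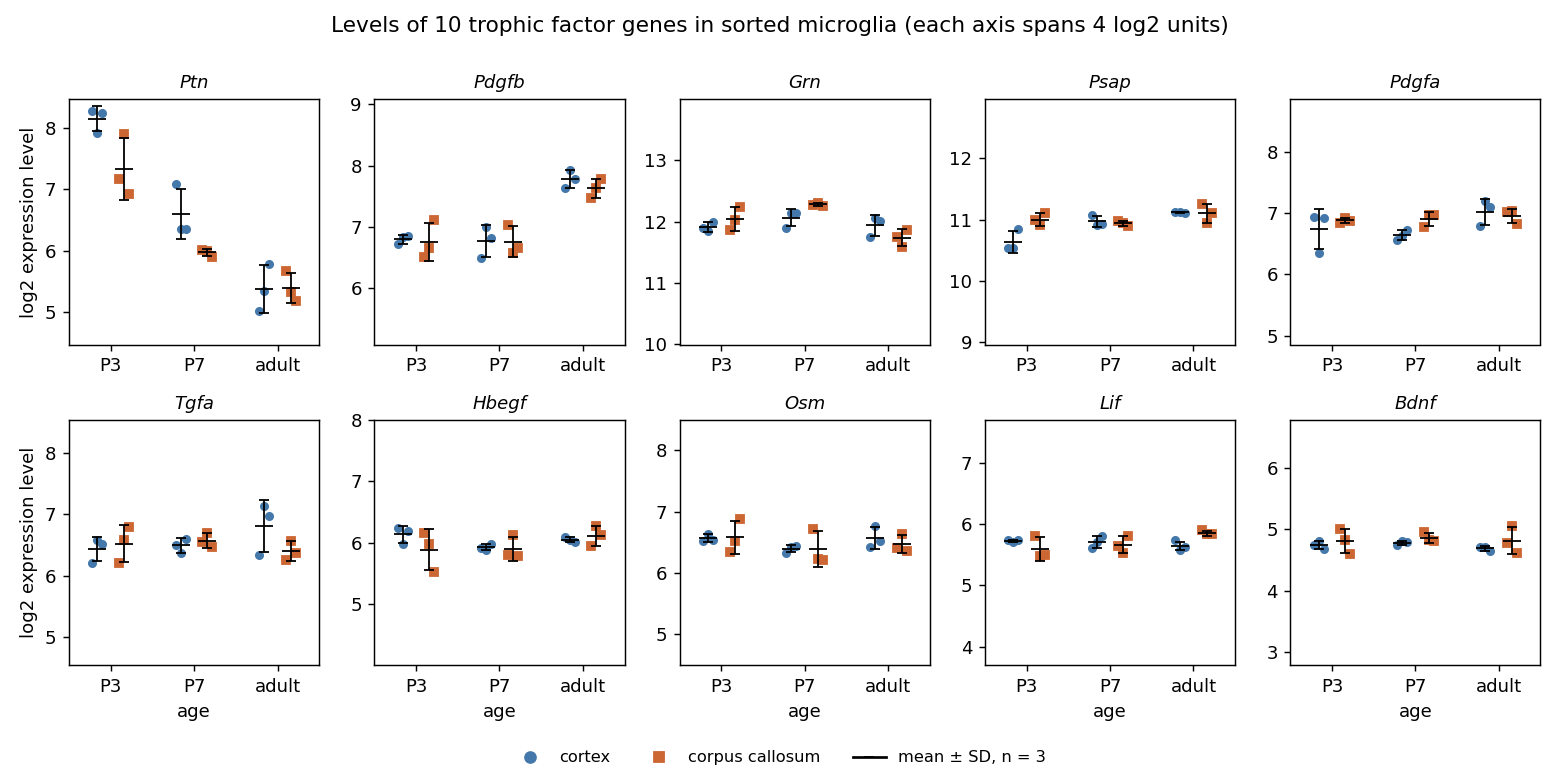
Log2 expression level (vertical axes, each spanning 4 log2 units) of the 10 genes by age (horizontal axes) in cortex (circles) and corpus callosum (squares). Points are arrays and bars are the mean ± SD of 3 arrays; Ptn declines with age, Pdgfb is higher on the adult arrays than on all others, and the remaining genes move over a narrower range.

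Ptn, a heparin-binding growth factor made by glia and progenitors of the developing brain, had the widest range of the 10 genes. In cortex it measured 8.28, 7.92 and 8.24 on the P3 arrays, 7.08, 6.36 and 6.36 at P7, and 5.01, 5.34 and 5.78 in the adult. In corpus callosum it measured 7.16, 7.90 and 6.92 at P3, 6.01, 6.00 and 5.89 at P7, and 5.67, 5.33 and 5.17 in the adult. Within each region the arrays of consecutive ages did not overlap. The order of the group means was cortex P3, corpus callosum P3, cortex P7, corpus callosum P7, then both adult groups, and only the corpus callosum at P3 against the cortex at P7, and the adult groups against each other, overlapped among neighbours in that order.

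From P3 to P7, Ptn fell by 1.55 ± 0.24 (SE) on the log2 scale in cortex, which is 2.92-fold lower (limma, adjusted p = 0.00373). It was the 1 gene of the 10 to fall there, where 0.604% of all genes fell. In corpus callosum Ptn fell by 1.36 ± 0.24, or 2.57-fold (adjusted p = 0.0172), again as the 1 gene of the 10 to fall, against 0.415% of all genes. The call in corpus callosum was lost when corpus callosum P7 replicate 2 (adjusted p = 0.0682), corpus callosum P7 replicate 3 (0.0794) or corpus callosum P3 replicate 2 (0.0581, with a fall of 1.08) was left out. Over all alternatives its adjusted p ran from 0.00439 to 0.123, while that in cortex ran from 0.000272 to 0.0313.

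In cortex Ptn fell between P7 and the adult by a further 1.23 ± 0.24, or 2.34-fold (limma, adjusted p = 0.00204), with 6.15% of all genes falling. On 2 of 3 adult cortex arrays and on all 3 adult corpus callosum arrays Ptn lay below the array median, so the size of the fall to the adult is uncertain. In corpus callosum the difference was -0.57 ± 0.24 and missed the threshold (adjusted p = 0.121), although the 3 adult arrays all lay below the 3 P7 arrays. With the arrays of these 2 groups fitted alone it passed (adjusted p = 0.0281).

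The difference of Ptn between corpus callosum and cortex was -0.82 ± 0.24 at P3 and -0.63 ± 0.24 at P7, and at both ages all corpus callosum arrays lay below all cortex arrays. Neither value passed over all genes (limma, adjusted p = 0.14 and 0.52). The P3 difference passed when corpus callosum P3 replicate 2, the highest of its group, was left out (-1.11, adjusted p = 0.0385), and its adjusted p over all alternatives ran from 0.0385 to 0.335. In the adult the regions lay 0.02 ± 0.24 apart (adjusted p = 0.99). The change of the regional difference from P3 to the adult, 0.84 ± 0.34, did not pass either (adjusted p = 0.294).

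**Figure D2:**
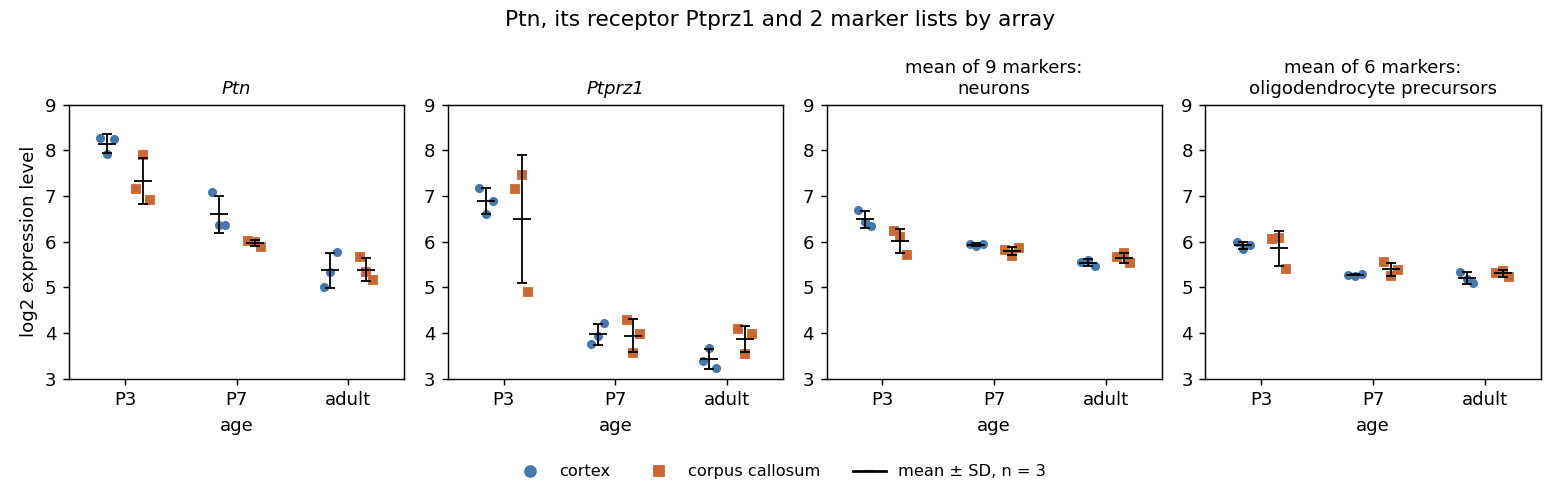
Log2 expression level (shared vertical axis) of Ptn, of its receptor Ptprz1, and of the mean over 9 neuronal and over 6 oligodendrocyte precursor markers that include Ptprz1, by age in cortex (circles) and corpus callosum (squares). Points are arrays and bars are the mean ± SD of 3 arrays. All 4 quantities have their highest group means at P3. Replicate 3 of the corpus callosum at P3 is the low square in the Ptprz1 panel and in both marker panels. It is also the lowest of its group for Ptn.

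The receptor Ptprz1 fell together with its ligand. In cortex it measured 7.17, 6.60 and 6.90 at P3 against 3.76, 3.94 and 4.22 at P7, a fall of 2.92 ± 0.43 (limma, adjusted p = 0.00242). In corpus callosum it measured 7.15, 7.47 and 4.89 at P3 against 4.28, 3.56 and 3.99 at P7, a fall of 2.56 ± 0.43 (adjusted p = 0.0123). The groups did not overlap in either region, but replicate 3 of the corpus callosum at P3 lay far below its group. The call in corpus callosum was lost without corpus callosum P7 replicate 2, corpus callosum P7 replicate 3 or corpus callosum P3 replicate 1, with an adjusted p of up to 0.0682, and over all alternatives the adjusted p ran from 7.82e-07 to 0.183. The levels at P7 and in the adult lay below the array medians, so the size of the fall is uncertain.

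Some markers of neurons fell in cortex over the same intervals as Ptn. From P3 to P7 the test was passed by 2 of 9 neuronal markers in cortex, both lower, and by 0 of 9 in corpus callosum. From P7 to the adult it was passed by 3 of 9 in cortex, all lower, and 0 of 9 in corpus callosum. Of all genes, 0.604% in cortex and 0.415% in corpus callosum fell from P3 to P7. From P7 to the adult 6.15% and 10.7% fell. The mean of 9 neuronal markers lay between 6.35 and 6.70 on the cortex P3 arrays and between 5.90 and 5.96 at P7, and it lay between 5.47 and 5.60 in the adult cortex. In corpus callosum its range was 5.72 to 6.23 at P3, 5.69 to 5.87 at P7 and 5.54 to 5.76 in the adult. Between 2 and 6 of the 9 markers lay below the array median. Gap43, a protein of growing axons, and Meg3, a long noncoding RNA of neurons, were lower in corpus callosum than in cortex at P3 (limma, adjusted p = 0.00406 and 0.0074). Both also fell in cortex from P3 to P7 (adjusted p = 0.00518 and 0.000367), and Gap43, Stmn2 and Tubb3 fell there from P7 to the adult. Of 6 oligodendrocyte precursor markers, 1 fell from P3 to P7 in each region, and it was Ptprz1 itself. The other 5 averaged between 5.69 and 5.75 in cortex at P3 and between 5.51 and 5.58 at P7. In corpus callosum these 5 averaged between 5.51 and 5.85 at P3 and between 5.60 and 5.80 at P7, while the defining receptor Pdgfra lay below the medians on every array, between 3.90 and 4.67. Of 7 astrocyte markers 0 passed from P3 to P7, with median differences of -0.10 in cortex and -0.22 in corpus callosum. These 7 averaged between 5.50 and 5.77 in cortex at P3 and between 5.37 and 5.49 at P7, without overlap. In corpus callosum they averaged between 5.44 and 5.86 at P3 and between 5.42 and 5.52 at P7. From P7 to the adult 2 of the 7 rose in cortex and 1 in corpus callosum, beside 4.05% and 6.56% of all genes. The part of neurons, precursors and astrocytes in the Ptn values was not tested.

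Over the 18 arrays, the genes with a pattern most like that of Ptn were Chl1, a neural cell adhesion molecule (Pearson r = 0.950), the noncoding RNA Snhg14 (r = 0.947) and Gria2, a glutamate receptor subunit (r = 0.943). All of them had their highest group mean in cortex at P3 and their lowest in an adult group. These lowest means, 4.27 for Chl1, 3.16 for Snhg14 and 4.76 for Gria2, lay below the array medians, so the size of the falls is uncertain. The genes were picked by their correlation and the arrays share their groups, so the r values only describe likeness.

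Pdgfb, the platelet-derived growth factor chain that recruits pericytes, went the other way with age. In cortex it measured 6.49, 7.00 and 6.82 at P7 and 7.63, 7.93 and 7.79 in the adult. In corpus callosum it measured 7.03, 6.57 and 6.66 at P7 and 7.47, 7.63 and 7.79 in the adult. Every adult array lay above every P3 and P7 array, the adult groups overlapped each other, and so did the 4 younger groups, in which the P3 arrays ran from 6.51 to 7.11.

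The rise of Pdgfb from P7 to the adult was 1.02 ± 0.17 in cortex, or 2.02-fold (limma, adjusted p = 0.000415), and 0.87 ± 0.17 in corpus callosum, or 1.83-fold (adjusted p = 0.00109). It was the 1 gene of the 10 to rise in each region, where 4.05% of all genes rose in cortex and 6.56% in corpus callosum. Over all alternatives its adjusted p stayed between 1.4e-05 and 0.00378 in cortex and between 0.000174 and 0.00906 in corpus callosum. Between P3 and P7 the group means of Pdgfb were 6.80 and 6.77 in cortex and 6.76 and 6.76 in corpus callosum.

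Over this interval 4 of 7 microglial markers rose in cortex and 5 of 7 in corpus callosum, beside 4.05% and 6.56% of all genes. Of 7 markers of border-associated macrophages, 3 fell in cortex and 4 in corpus callosum, beside 6.15% and 10.7% of all genes. These 7 averaged between 6.45 and 6.81 in cortex at P7 and between 5.38 and 5.57 in the adult, and in corpus callosum between 6.76 and 6.95 at P7 and between 5.51 and 5.57 in the adult. Endothelial and mural markers, whose cells also make Pdgfb, averaged between 5.40 and 5.85 on all arrays, with 1 of 8, Pecam1, rising in cortex by 1.06 (limma, adjusted p = 0.000125). Their part in the Pdgfb values was not tested. The genes most like Pdgfb across the 18 arrays were the cytokine receptor gene Il21r (r = 0.968), the transglutaminase Tgm2 (r = 0.959) and the interferon receptor gene Ifnar2 (r = 0.958), all with their highest group mean in the adult cortex.

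Pdgfa, the ligand that drives division of oligodendrocyte precursors, did not pass in any comparison. In cortex it measured 6.94, 6.35 and 6.92 at P3, 6.56, 6.63 and 6.72 at P7, and 6.79, 7.19 and 7.09 in the adult. In corpus callosum it measured 6.84, 6.91 and 6.87 at P3, 6.77, 6.96 and 6.96 at P7, and 7.01, 7.03 and 6.82 in the adult. The adult cortex arrays all lay above the P7 cortex arrays, by 0.39 ± 0.15 (limma, adjusted p = 0.119), and groups next to each other in mean level overlapped throughout. Without cortex adult replicate 1 the difference was 0.50 and passed (adjusted p = 0.049), and it also passed with arrays weighted by quality (0.45, adjusted p = 0.0107). Without replicate 1 of both adult groups it did not (adjusted p = 0.054).

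Tgfa, a ligand of the EGF receptor, measured 6.50, 6.36 and 6.59 in cortex at P7 and 6.33, 7.13 and 6.97 in the adult, so that 1 adult array lay below the P7 group and the other 2 above it. The difference of 0.32 ± 0.19 did not pass (limma, adjusted p = 0.361). It passed without cortex adult replicate 1 (0.56, adjusted p = 0.043), without replicate 1 of both adult groups (adjusted p = 0.042) and with arrays weighted by quality (0.48, adjusted p = 0.0192). In the adult corpus callosum Tgfa measured 6.26, 6.57 and 6.37, which was 0.41 below the adult cortex with overlapping arrays (adjusted p = 0.568).

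Hbegf, a related EGF receptor ligand, had group means from 5.89 in corpus callosum at P3 to 6.14 in cortex at P3, and its lowest adjusted p in the comparisons of regions and ages was 0.393. Its arrays ran from 5.52 to 6.27, with 1 of 18 arrays below the array median. Of the cytokines, Osm ran from 6.22 to 6.88 over the arrays, with group means between 6.39 and 6.58 and a lowest adjusted p of 0.62. Lif, which promotes survival of oligodendrocytes, ran from 5.47 to 5.90, with 6 of 18 arrays below the array median. Its adult corpus callosum arrays, at 5.90, 5.84 and 5.83, lay above all arrays of the group next below, but the rise from P7 in corpus callosum of 0.20 did not pass (limma, adjusted p = 0.272).

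Bdnf, a neurotrophin that microglia have been reported to release, lay below the array median on all 18 arrays, between 4.60 and 5.05. Group means ran from 4.69 in the adult cortex to 4.86 in corpus callosum at P7, and the lowest adjusted p was 0.771. At such a signal the array does not separate a low transcript level from background.

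**Figure D3:**
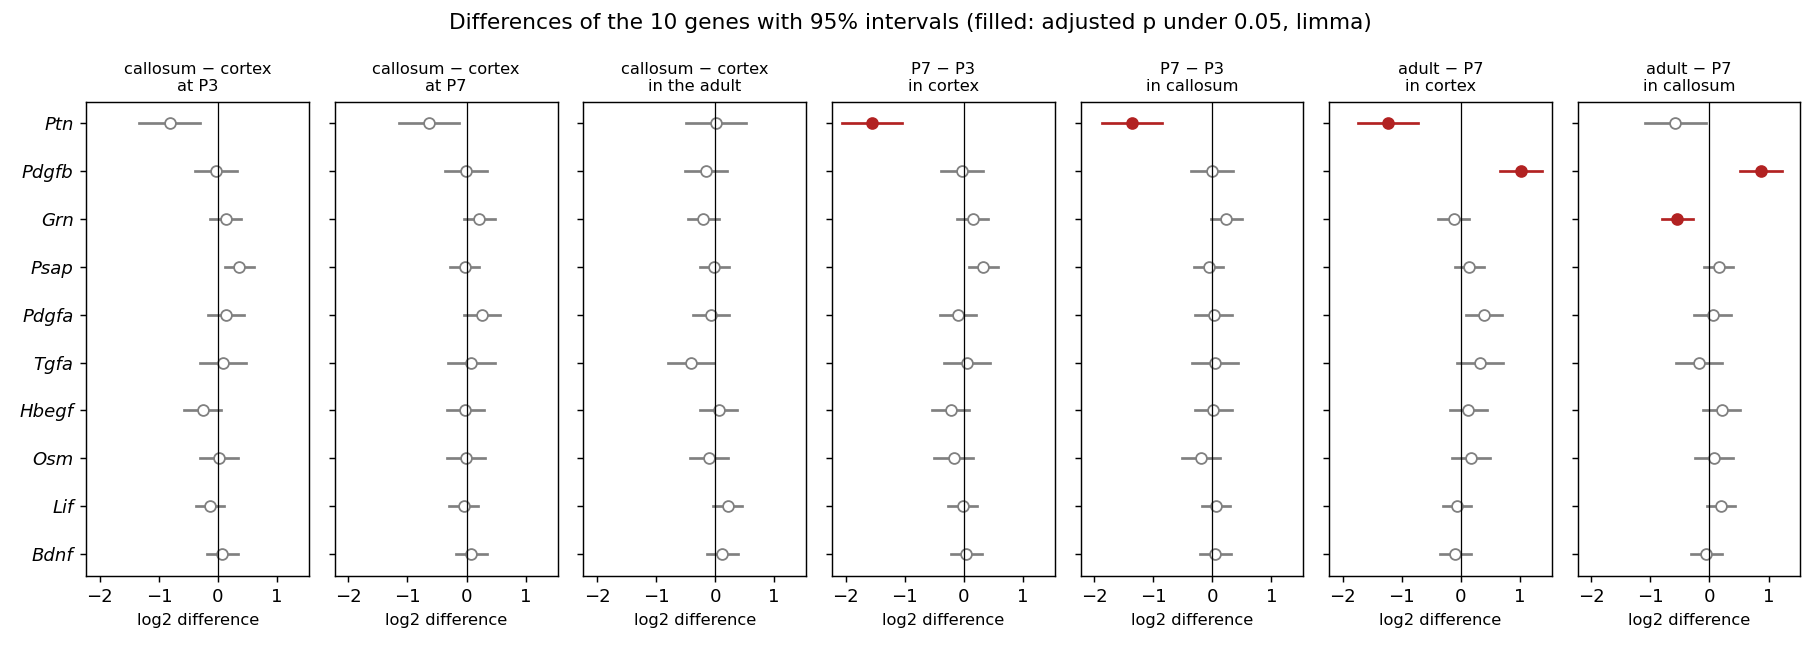
Log2 difference (horizontal axes) of each of the 10 genes in the 3 comparisons of corpus callosum with cortex and the 4 comparisons of ages, with 95% intervals. Filled points have an adjusted p under 0.05 in limma; they are Ptn in 3 panels, Pdgfb in 2 panels and Grn in 1 panel.

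For the 7 genes that did not pass, the 95% intervals, each taken for a single comparison, describe differences in array signal. Over the 7 comparisons of regions and ages the widest of their intervals reached 0.80 log2 units, for Tgfa between the adult regions, which is 1.74-fold. For Bdnf the intervals stayed between -0.35 and 0.38, for Lif between -0.37 and 0.45, and for Psap between -0.31 and 0.61. Bdnf lay below the array median on 18 arrays and Lif on 6, so their intervals do not bound a change of transcript. A missed threshold within such intervals does not show equal levels.

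Grn, which encodes progranulin, is handled by microglia both as a secreted factor and as a lysosomal protein. In corpus callosum it measured 12.27, 12.31 and 12.25 at P7 and 11.75, 11.59 and 11.86 in the adult. In cortex it measured 11.90, 12.14 and 12.14 at P7 and 11.75, 12.06 and 12.01 in the adult. The corpus callosum groups did not overlap and the cortex groups did. Grn fell in corpus callosum by 0.54 ± 0.13, or 1.46-fold (limma, adjusted p = 0.00477), where 10.7% of all genes fell, and it passed under all 15 alternatives run for it, with an adjusted p between 0.000442 and 0.0301.

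In cortex the adult value of Grn differed from P7 by -0.12 ± 0.13 (limma, adjusted p = 0.684). The difference between the regions in this change was -0.42 ± 0.18, with a 95% interval from -0.79 to -0.05, and did not pass (adjusted p = 0.604). The P3 arrays measured 11.89, 11.84 and 11.99 in cortex and 11.86, 12.02 and 12.24 in corpus callosum. The corpus callosum at P7 was the highest group and lay apart from the cortex at P7, the next group in order, and the adult corpus callosum was the lowest and overlapped the cortex at P3.

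Psap, which encodes the precursor of the saposins that help lysosomal enzymes to break down sphingolipids, measured 10.54, 10.53 and 10.85 in cortex at P3, below all arrays of corpus callosum at P3, at 10.99, 10.91 and 11.11. The regional difference of 0.36 ± 0.12 did not pass (limma, adjusted p = 0.181), nor did the difference between P7 and P3 in cortex of 0.33 ± 0.12 (adjusted p = 0.216). At P7 the arrays read 11.08, 10.91 and 10.93 in cortex and 10.98, 10.95 and 10.90 in corpus callosum. The adult arrays read 11.13, 11.12 and 11.11 in cortex and 11.26, 10.95 and 11.10 in corpus callosum, and these 4 groups and the corpus callosum at P3 overlapped in order of level.

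Several genes that handle progranulin, prosaposin or the other factors passed. Of 14 genes for release and processing of trophic factors, 2 were higher in corpus callosum at P7, 0 differed at P3 or in the adult, 3 fell from P7 to the adult in cortex and 6 fell in corpus callosum. The shares over all genes were 0.451% at P7 between regions, and 6.15% and 10.7% falling to the adult in cortex and corpus callosum. The medians of this list for the adult against P7 were 0.04 in cortex and -0.05 in corpus callosum, beside 0.03 and 0.05 over all genes. Slpi, an inhibitor that protects progranulin from elastase, measured 6.89, 6.03 and 6.35 in cortex and 8.65, 8.03 and 7.66 in corpus callosum at P7, without overlap. It was 3.23-fold higher in corpus callosum (1.69 ± 0.22, limma, adjusted p = 0.000465). This call was lost in 1 of 15 alternatives, over which the adjusted p ran from 3.37e-05 to 0.0655.

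Slpi had risen in corpus callosum from P3, where it measured 6.94, 6.74 and 6.75, by 1.30 ± 0.22 (limma, adjusted p = 0.0123). This call was lost without corpus callosum P7 replicate 2 (adjusted p = 0.05), and over all alternatives the adjusted p ran from 0.00497 to 0.123. By adulthood Slpi was at 5.90, 6.00 and 5.76 in corpus callosum, a 4.68-fold fall (adjusted p = 8.11e-07). Of 6 neutrophil markers 0 passed between regions at P7. They averaged 5.79, 4.62 and 4.64 on corpus callosum P7 replicates 1, 2 and 3, of which replicate 1 had the highest Slpi. In cortex at P7 they averaged between 4.43 and 4.70. On corpus callosum P3 replicates 1, 2 and 3 they averaged 4.68, 5.17 and 6.27. Their part in the Slpi values was not tested.

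Of the 3 lysosomal cathepsins on this list, which can cut progranulin or prosaposin, Ctsb and Ctsl fell from P7 to the adult and Ctsd did not pass. Ctsb, cathepsin B, measured 12.12, 12.09 and 12.01 in corpus callosum at P7 and 10.67, 10.61 and 10.90 in the adult, a fall of 1.35 ± 0.11 (limma, adjusted p = 8.26e-08). In cortex it fell by 0.63 ± 0.11 (adjusted p = 0.000675). Ctsl, cathepsin L, fell by 0.68 ± 0.14 in cortex (adjusted p = 0.00299) and by 1.24 ± 0.14 in corpus callosum (adjusted p = 4.47e-06). Ctsd, cathepsin D, differed by 0.24 ± 0.10 in cortex (adjusted p = 0.18) and by 0.03 ± 0.10 in corpus callosum (adjusted p = 0.87). Adam9, a membrane protease that can shed Hbegf, fell by 1.11 ± 0.14 in cortex (adjusted p = 2.6e-05) and by 1.51 ± 0.14 in corpus callosum (adjusted p = 5.15e-07).

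**Figure D4:**
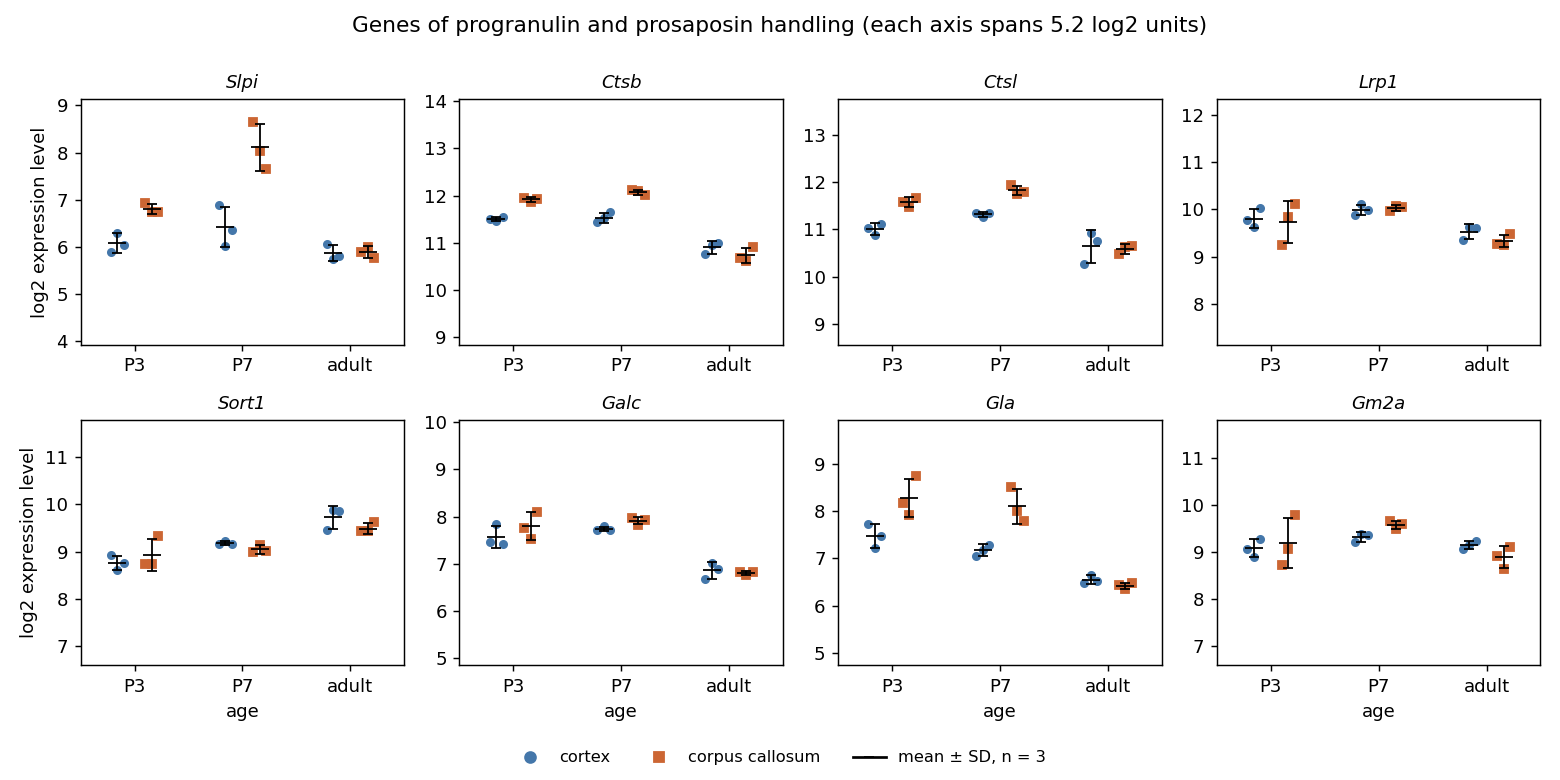
Log2 expression level (vertical axes, each spanning 5.2 log2 units) by age of genes that handle progranulin and prosaposin, in cortex (circles) and corpus callosum (squares). Points are arrays and bars are the mean ± SD of 3 arrays; Slpi is highest in corpus callosum at P7, and Ctsb, Galc and Gla are lower on the adult than on the P7 arrays of both regions.

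Ctsb was 0.54 ± 0.11 higher in corpus callosum than in cortex at P7 (limma, adjusted p = 0.0309), a call lost on leaving out any 1 of the 6 arrays (adjusted p up to 0.23). A list of lysosomal hydrolases and the activator Gm2a had 8 measured genes. Of these 8, Gla, alpha-galactosidase, was likewise higher there, by 0.94 ± 0.19 (adjusted p = 0.0345), and 0 were higher or lower at P3 or in the adult. Over all genes 0.451% differed between regions at P7. The Gla call was lost without any 1 of the cortex P7 arrays or of corpus callosum P7 replicates 1 and 2 (adjusted p up to 0.326). Over all alternatives the adjusted p of these calls ran from 0.0019 to 0.23 for Ctsb and from 0.00708 to 0.326 for Gla.

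From P7 to the adult, 2 of the 8 genes for hydrolases and the activator Gm2a fell in cortex and 3 in corpus callosum. Over all genes 6.15% and 10.7% fell. The medians of the list were -0.14 and -0.31. Galc, the galactosylceramidase that degrades a main lipid of myelin, measured 7.97, 7.83 and 7.93 in corpus callosum at P7 and 6.82, 6.75 and 6.83 in the adult. It fell by 1.11 ± 0.14 there (limma, adjusted p = 2.11e-05) and by 0.88 ± 0.14 in cortex (adjusted p = 0.000349). Gla fell by 1.69 ± 0.19 in corpus callosum (adjusted p = 5.2e-06) and by 0.63 ± 0.19 in cortex (adjusted p = 0.0456), the latter lost on leaving out any 1 of the 6 arrays (0.00681 to 0.16 over all alternatives). Gm2a, the activator of ganglioside breakdown, fell by 0.68 ± 0.19 in corpus callosum (adjusted p = 0.0196), a call lost without corpus callosum P7 replicate 1, corpus callosum P7 replicate 3 or corpus callosum adult replicate 2 (0.00373 to 0.0965 over all alternatives). Over the same interval 3 of 7 border-associated macrophage markers fell in cortex and 4 of 7 in corpus callosum, and their part in these lysosomal values was not tested.

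The genes most like Grn over the 18 arrays were Arpc4, a subunit of the complex that branches actin (r = 0.947), Eif3d, a translation initiation factor subunit (r = 0.941), and M6pr, a receptor that sorts enzymes to lysosomes (r = 0.933). All had their highest group mean in corpus callosum at P7 and their lowest in the adult corpus callosum, as Grn did.

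Of the 18 receptors listed for these factors, 0 differed between regions at any age, and from P3 to P7 Ptprz1 was the 1 that fell in each region. Over all genes 0.505%, 0.451% and 0.00451% differed between regions at P3, at P7 and in the adult. From P3 to P7 0.604% of all genes fell in cortex and 0.415% in corpus callosum. Between P7 and the adult 2 of the 18 receptors rose and 0 fell in cortex, and 1 rose and 2 fell in corpus callosum. Of all genes 4.05% rose and 6.15% fell in cortex, and 6.56% rose and 10.7% fell in corpus callosum. The median differences of the list were -0.07 and -0.12 from P3 to P7, and -0.01 and -0.04 from P7 to the adult, in cortex and corpus callosum. Several that respond to the secreted factors lay low on all arrays, among them Pdgfra, Osmr between 4.28 and 4.94 and Egfr between 4.47 and 5.56. Lifr, the receptor chain for Lif, measured 7.73, 8.01 and 7.64 in cortex at P7 and 8.69, 8.97 and 9.18 in the adult, a rise of 1.16 ± 0.30 (limma, adjusted p = 0.0179). In corpus callosum it rose by 1.31 ± 0.30 (adjusted p = 0.00493). The cortex call was lost without cortex P7 replicate 1 or 3 or cortex adult replicate 2 or 3 (0.000504 to 0.0811 over all alternatives).

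Of the receptors that take up progranulin and prosaposin, Sort1 passed in cortex and Lrp1 in corpus callosum. In the other region each moved the same way but missed the threshold. Sort1 differed by 0.44 ± 0.16 in corpus callosum (limma, adjusted p = 0.0621) and Lrp1 by -0.47 ± 0.17 in cortex (adjusted p = 0.103). Sort1, sortilin, which carries progranulin to lysosomes, rose in the adult cortex by 0.54 ± 0.16 (limma, adjusted p = 0.0294), a call lost without any 1 of the cortex P7 arrays or of cortex adult replicates 2 and 3 (0.000431 to 0.129 over all alternatives). Lrp1, which takes up prosaposin, measured 9.96, 10.08 and 10.05 in corpus callosum at P7 and 9.27, 9.25 and 9.48 in the adult, a fall of 0.70 ± 0.17 (adjusted p = 0.00746). Sdc3, a heparan sulphate proteoglycan that binds pleiotrophin, fell by 0.71 ± 0.24 in corpus callosum (adjusted p = 0.0465), a call lost on leaving out any 1 of the 6 arrays (0.00314 to 0.125 over all alternatives).

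Among 18 related ligands measured of 22 listed, Igf1 alone was higher in corpus callosum at P3 (1.35 ± 0.27, limma, adjusted p = 0.031) and at P7 (2.44 ± 0.27, adjusted p = 9.05e-05), beside 0 of the 10 trophic factors. The P3 call of Igf1 was lost without replicate 1 or 2 of either region (0.00783 to 0.142 over all alternatives). In each region 2 related ligands rose and 1 fell from P7 to the adult, and the 1 that fell was Igf1. The shares over all genes were 4.05% and 6.56% for a rise and 6.15% and 10.7% for a fall, in cortex and corpus callosum. Between regions, in either direction, they were 0.505% at P3 and 0.451% at P7. The medians of this list were 0.11 in cortex and 0.07 in corpus callosum. Il6 measured 4.56, 4.70 and 4.60 in cortex at P7 and 5.83, 6.01 and 6.31 in the adult, a rise of 1.43 ± 0.21 (adjusted p = 0.000145), and it rose by 1.48 ± 0.21 in corpus callosum (adjusted p = 6.77e-05). Il6 lay below the array median on all 6 P7 arrays and on 2 of 3 adult corpus callosum arrays, so the size of these rises is uncertain. Clcf1, a cytokine of the same family as Lif, rose by 1.49 ± 0.15 in corpus callosum (adjusted p = 1.45e-06) and by 0.66 ± 0.15 in cortex (adjusted p = 0.00752), the latter lost without cortex P7 replicate 3 (0.057, with a range from 0.000188 to 0.057).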

How the data were processed

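Expression of 10 trophic factor genes was taken from 18 arrays of sorted microglia. The values are log2 expression levels deposited by the authors, made with RMA per the submitters' processing notes, with 1 value per probe set and array. RMA corrects background, aligns the arrays and combines probes, so total RNA per cell is not measured and large differences are compressed. The version and settings of RMA were not given in the sources used here, nor was the genome build of the array. The base of the logarithm was taken as 2 from the range of the values (0.87 to 13.8). Of 41345 probe sets, 23521 had 1 gene symbol in GEO's platform annotation, 1814 had several and 16010 had none. The brightest probe set represented each of 22180 genes. Identifiers and promoter windows came from RefSeq tables of GRCm38.p6.

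All 18 arrays entered a single limma fit (limma 3.58.1, R 4.3.3) with a mean per group, lmFit, contrasts.fit and eBayes without trend, and 12 residual degrees of freedom. The 10 comparisons were region within age, P7 against P3 and adult against P7 within region, and changes of the regional difference between ages. Tests were two-sided, with Benjamini-Hochberg adjustment of the p-values across the genes of each comparison. The value after ± is a standard error for a difference. The fit was tested on simulated data. Alternatives changed the normalization, the filter on dim probe sets, the variance moderation, array weights, the replicate block, the arrays and probe sets that entered, and left out each array in turn.

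The genes named were all 10 trophic factors, of each companion list up to 3 passing genes per direction with the largest difference in each comparison of regions or ages, and the 3 genes with the highest Pearson correlation to each trophic factor that passed. Ctsd, Ctsl in corpus callosum, low receptors and marker genes named beside a result were picked after their values were seen. The genes and lists were chosen with earlier results of these data known. Some genes of the lists were not analysed here. The number of arrays limits the precision.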

Additional observations from a re-analysis of the deposited data

How the results depend on the processing

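No value reversed its direction among the 18 differences of trophic factor genes and the 30 of companion genes that were recomputed. The 18 had passed or had an unadjusted p under 0.05 in limma, and the 30 had passed. That choice made a reversal unlikely, so its absence says little about other genes. Of 168 recomputed counts 161 stayed within 1.5 times, and of 300 recomputed differences of trophic factors 292 stayed on their side of the threshold, as did 388 of 446 for companion genes. From P7 to the adult in cortex, array weights gave 4 trophic factors in place of 2, and leaving out 1 array gave 2 to 4. From P3 to P7 in corpus callosum, the groups fitted alone gave 0 in place of 1 (Ptn, adjusted p = 0.123 in limma), and leaving out 1 array gave 0 to 1. At P3 between regions, leaving out 1 array gave 0 to 1 in place of 0. The causes were not tested, although fitting the groups alone or leaving out an array uses fewer arrays. All other comparisons of region and age, and the changes of the regional difference, kept their counts of trophic factors within 1.5 times under every setting that was run. Of the other pairs of gene and comparison, 95 of 1370 recomputed values turned sign, with a difference of at most 0.19 as reported, and 3 newly passed, all for Tgfa in the adult cortex.

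The replicate numbers were not taken to pair the arrays in the main fit. Deviations of same-numbered cortex and corpus callosum arrays correlated at 0.026, 0.016 and 0.109 at P3. The values were 0.131, 0.078 and 0.049 at P7 and 0.300, 0.062 and 0.245 in the adult. For differently numbered arrays they ran from -0.117 to 0.086 at P3, from -0.107 to 0.048 at P7 and from -0.313 to 0.198 in the adult. Whether same-numbered arrays shared animals or handling was not tested. With the replicate block, 0 of the 10 trophic factors passed between regions at each age, as without it, and the calls of Ctsb (adjusted p = 0.0929) and Gla (0.0679) at P7 were lost. Over all genes the block took the count of changed regional differences from 45 to 28 between P7 and the adult and from 40 to 21 between P3 and the adult.

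Over all genes, counts between regions ran from 16 to 251 at P3 (112 as reported), from 40 to 236 at P7 (100) and from 0 to 3 in the adult (1). From P3 to P7 they ran from 72 to 644 in cortex (196) and from 5 to 506 in corpus callosum (164). From P7 to the adult they ran from 1567 to 3861 in cortex (2264) and from 2917 to 4438 in corpus callosum (3822). For changes of the regional difference they ran from 0 to 1 between P3 and P7 (0), from 10 to 105 between P7 and the adult (45) and from 0 to 190 between P3 and the adult (40). Without replicate 3 of the corpus callosum at P3, 506 genes passed from P3 to P7, and without replicate 3 of the corpus callosum at P7, 13 did. Quantile normalization moved the median difference of all genes by at most 0.079. Signal over background limits Bdnf on 18 arrays, Lif on 6, Ptn on 5 and Hbegf on 1.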
